A study of Bos taurus with 6 samples.

Results

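Chromosome 14 of cattle carries protein-coding genes of unrelated function, and in these cells most of them had less RNA after disruption of KLF6. Its members here are the count table's protein-coding rows on chromosome 14 that held at least 60 reads over all libraries. From 458 protein-coding rows there, 275 reached that total, 183 did not, and 105 of the latter held no read at all. Ribosomal protein symbols (5 rows) and 18 rows of 20 symbols named in the rule were left out, which leaves 252 members of 28200 rows in the table. The chromosome was selected on the same knockout against wild-type counts, because its genes were lower there as a body. Each value of that comparison below is therefore a description, and nothing is read from its tests about the chromosome.

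Genes of a chromosome share their DNA molecule and, as a class, no pathway: each has its own promoter, and its RNA level depends on how fast that RNA is made and removed. Cattle chromosome 14 is best known in dairy science for the milk fat gene DGAT1 near its low-coordinate end, one of the symbols left out here. The members include enzymes, transcription factors, translation factors, matrix proteins and trafficking proteins.

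The cells were primary mammary epithelial cells of Holstein cattle, wild type in 3 libraries (replicates 1 to 3) and with KLF6, a Kruppel-like transcription factor, disrupted by CRISPR/Cas9 in the other 3. Both genotypes were cultured cells with no further treatment named, and the labels do not say how many edited clones, animals or cultures stand behind a genotype. The spread between libraries may thus be technical. KLF6 itself lies on chromosome 13 and stood at 224, 230 and 217 CPM in knockout and 503, 496 and 558 CPM in wild-type libraries, a log2 fold change of -1.21 ± 0.05 (SE). CPM is a gene's count scaled to 1000000 in a library after TMM adjustment, and below it is given per library or as mean ± SD over 3 libraries.

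Depth was even, with 17512892 to 18724879 counts per library. Wild-type replicate 3 stood apart from its group: over all genes its counts differed from those of wild-type replicates 1 and 2 by a mean chi-square of 9.07 and 9.22 per gene, where 1 is pure counting noise, against 2.27 to 2.96 for the other pairs within a genotype. Without it 204 members were lower and 21 higher, and the median log2 fold change was -0.84, beside the 206, 19 and -0.82 given below. Luminal and basal epithelial markers were present, with 7 of 12 luminal markers lower and 1 higher, and 6 of 10 basal markers lower and 2 higher: the summed level of the 12 luminal markers was 4129 to 4279 CPM against 11473 to 12762 CPM in wild type, and that of the 10 basal markers was 4755 to 4817 against 8022 to 8227 CPM. KRT8 and KRT18 made up most of the luminal sum, while EPCAM (0.01) and CDH1 (-0.08) did not pass the threshold and FOXA1 was higher (0.42). KRT5 and ITGA6 made up most of the basal sum, while KRT14 (0.76) and CDH3 (1.47) were higher. Fibroblast markers (11 genes, 4 lower and 1 higher) summed to 248 to 261 CPM in knockout and 1058 to 1254 CPM in wild type. DCN made up most of that sum (222 to 234 against 1012 to 1208 CPM), while COL1A2 was higher, at 4.57 to 5.63 CPM against 0 in each wild-type library. Those of pericytes and smooth muscle (6 genes, 3 lower and 0 higher) summed to 39.5 to 41.4 against 95.1 to 117 CPM, with DES and RGS5 at 0. Endothelial markers (7 genes, 2 lower and 2 higher) summed to 32.3 to 33.8 against 4.55 to 5.85 CPM, with KDR and CLDN5 at 0. PECAM1 made up most of the knockout sum (30.4 to 32.2 against 0.161 to 0.328 CPM), while VWF and TEK were lower (-3.85 and -2.31). Leukocyte markers (8 genes, 1 lower and 2 higher) summed to 19.1 to 21.5 against 13.3 to 15.6 CPM with PTPRC at 0. Among them AIF1 was higher (13.6 to 15.7 against 5.76 to 6.39 CPM) and CD74 lower (0 to 0.279 against 3.22 to 5.02 CPM). Adipocyte markers (6 genes, 1 lower and 1 higher) summed to 6.54 to 9.03 against 4.40 to 4.86 CPM with ADIPOQ at 0. Of these 60 markers, 0 lie on chromosome 14, and their part in the chromosome's shift was not tested. In bulk RNA, fewer cells of a type and less RNA per cell cannot be told apart.

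Of the 252 members, 206 (81.7%) were lower in knockout, 19 (7.54%) were higher and 27 did not pass the threshold (edgeR quasi-likelihood test, Benjamini-Hochberg adjusted p up to 0.05 over all genes tested). Over all 13390 genes tested, 37.6% were lower and 37.1% higher, 74.6% either way. The median log2 fold change of the members was -0.82, a knockout level of 0.565 of wild type, beside -0.01 for all genes tested. The quartiles of the members were -1.31 and -0.37, and 94 members (37.3%) were at -1 or lower, against 11.5% of all genes. The members' spread around their own median was like that of other genes, with an interquartile range of 0.93 against 0.99 over all genes, so that the whole distribution stood lower rather than a tail of it.

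**Figure D1:**
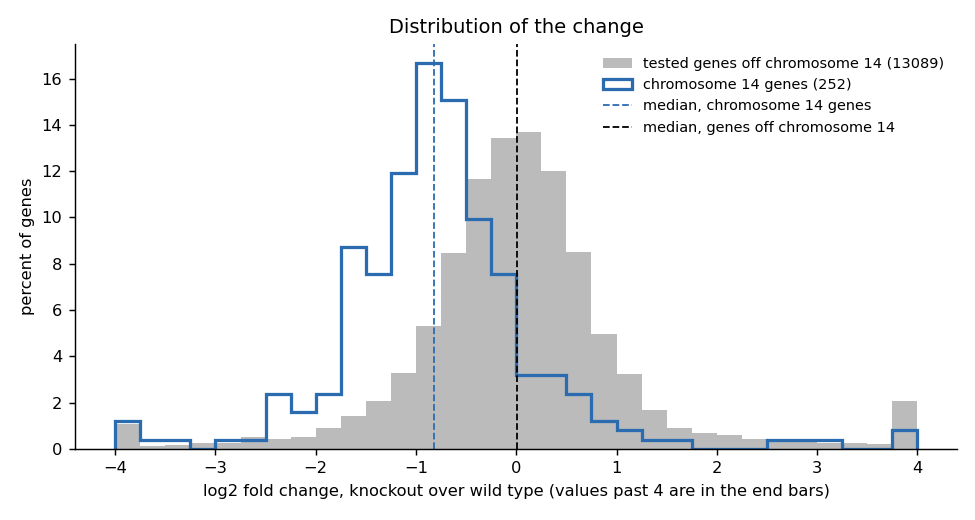
Percent of genes (vertical axis) per step of the fitted log2 fold change (horizontal axis, knockout over wild type), for the 252 chromosome 14 genes (outline) and the 13089 tested genes on other chromosomes or scaffolds (grey bars), with dashed lines at the medians and values past 4 in the end bars. The outline has its centre near -0.82, and the grey bars have theirs near 0.01.

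Each library showed the same difference. Reads of the members made up 0.837%, 0.844% and 0.841% of the counts in the 3 knockout libraries and 1.597%, 1.636% and 1.617% in the 3 wild-type libraries. No library of either genotype came near the other genotype's range. With each knockout library set against each wild-type library, the median log2 ratio over the members (0.1 CPM added) was between -0.85 and -0.78 in the 9 pairs, and 215 to 219 members were below 0. Between libraries of the same genotype it was between -0.01 and 0.03 in the 6 pairs. All knockout libraries lay below all wild-type libraries for 205 members (81.3%), beside 38.3% of all genes tested, and above them for 21 members, beside 37.9%. For the other 26 members the genotypes overlapped.

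The lower level ran along the whole chromosome. In each of the 9 consecutive 10 Mb stretches the median log2 fold change was below 0, and it ranged from -0.97 in the first to -0.46 in the eighth (70 to 80 Mb). The first stretch holds the most members, with 63 of 70 lower, and the fourth (30 to 40 Mb) had a median of -0.96 with 26 of 30 lower. Medians were -0.60 from 10 to 20 Mb (31 genes), -0.62 from 20 to 30 Mb (21 genes), -0.73 from 40 to 50 Mb (17 genes) and -0.89 from 50 to 60 Mb (8 genes). From 60 to 70 Mb the median was -0.91, with 33 of 40 lower, and beyond 80 Mb it was -0.58 with 8 of 10 lower. The stretches with the smallest drop, 70 to 80 Mb and beyond 80 Mb, hold 25 and 10 genes. In the eighth stretch the knockout libraries themselves differed most, with medians of -0.52 to -0.32 against the wild-type mean, whereas in the first they were at -1.02 to -0.96.

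**Figure D2:**
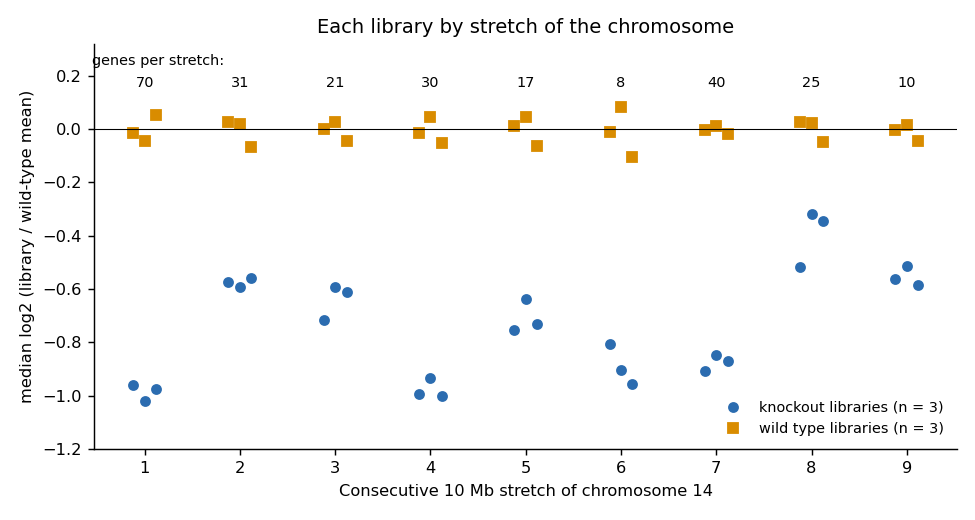
Median log2 ratio of each library to the wild-type mean (vertical axis, 0.1 CPM added) over the members of each consecutive 10 Mb stretch (horizontal axis), with blue circles for the 3 knockout libraries, orange squares for the 3 wild-type libraries and the number of genes above. In each stretch the knockout points lie below the wild-type points, lowest in the first (-1.02 to -0.96) and highest in the eighth (-0.52 to -0.32).

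At a finer scale the change moved from gene to gene. A running median over 21 neighbouring genes was below 0 in all 232 windows, lowest at -1.55 in the window from TMEM249 to an unnamed gene at 1.09 Mb and highest at -0.10 in the window from TBC1D31 to IMPAD1 (16631171 to 23883121). The lowest window lies in a dense block near the low-coordinate end, where 37 neighbours in a row from GPT to ZC3H3 (438530 to 1215120, 777 kb) were all lower, from -2.50 to -0.21. Further along, 25 neighbours in a row were lower from LRRC6 to C14H8orf76 (8601623 to 16583706) and 12 from YWHAZ to NIPAL2 (63393855 to 66051049). In the highest window 10 genes were lower, 4 higher and 7 did not pass. The log2 fold changes of the 251 pairs of adjacent members were nearly unrelated in rank (Spearman rho 0.06, a description over genes that share libraries), and in 29 pairs the neighbours were called in opposite directions. RGS20, the member with the highest value, lies between ATP6V1H, a subunit of the proton pump of lysosomes (-0.66 ± 0.06), and TCEA1, a transcription elongation factor (-0.42 ± 0.05). KHDRBS3 (4.42 ± 0.22) lies between TRAPPC9, of vesicle tethering (-1.34 ± 0.06), and the zinc-finger gene ZFAT (-1.16 ± 0.13). ZBTB10 (2.79 ± 0.38) follows TPD52, a trafficking protein abundant in many carcinomas (-1.31 ± 0.06). The next gene along thus told little about a gene's own value, while medians of 21 neighbours still ranged from -1.55 to -0.10. The log2 fold change rose weakly with position (Spearman rho 0.20 over the 252 members). Of the members, 34.1% lay within 0.3 log2 of their own median, beside 32.1% of all genes tested around theirs.

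**Figure D3:**
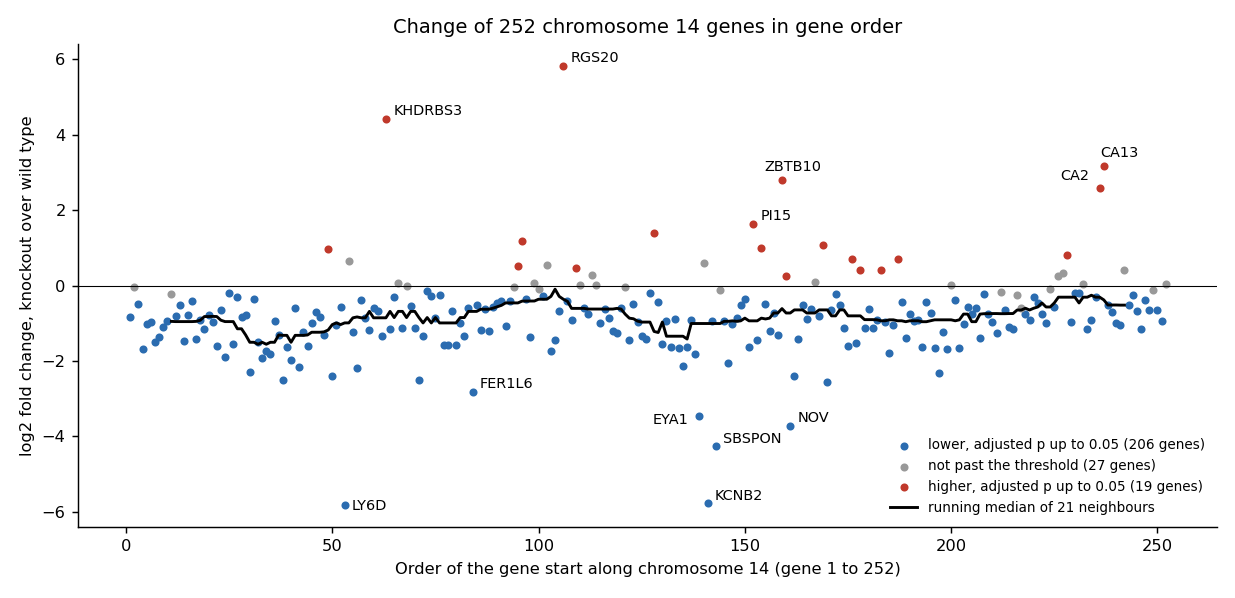
Fitted log2 fold change (vertical axis, knockout over wild type) for the 252 genes in the order of their start (horizontal axis), coloured by the edgeR call (206 lower in blue, 27 not past the threshold in grey, 19 higher in red), with a running median of 21 neighbours as a line. The line stays below 0 from end to end, and single genes such as RGS20 (5.82) and LY6D (-5.81) stand far from it.

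Genes near the chromosome's median and well expressed show the typical change. EIF3H, a subunit of the translation initiation factor eIF3 (47572111 to 47669435 in the count table's coordinates, whose genome build no source names), was at 131, 128 and 136 CPM in knockout and 236, 238 and 216 CPM in wild type, a log2 fold change of -0.80 ± 0.05. GPAA1, which helps attach lipid anchors to proteins, was at 73.2, 69.5 and 73.0 CPM against 128, 127 and 125 CPM (-0.82 ± 0.05). EIF3H and GPAA1 sit at distant positions. Both were picked for a value within 0.1 of the members' median, so knockout libraries below wild type follow from that choice. SDCBP, the scaffold protein syntenin, fell from 124 ± 7.36 to 68.4 ± 1.23 CPM, and TRIB1, a pseudokinase that guides protein breakdown, from 122 ± 7.96 to 68.0 ± 2.94 CPM. The row named MGC148714, described in the file as the respiratory chain subunit COX6C, a symbol that the rule leaves out, is a member only under its other name and fell from 145 ± 6.46 to 87.4 ± 5.34 CPM.

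The member with the highest mean CPM over both genotypes in each 10 Mb stretch went from strongly lower to level, and a mean over both favours genes that did not fall. In wild type alone MAL2 (368 CPM) stood above EXT1 (299 CPM) and SDCBP (124 CPM) above IMPAD1 (111 CPM), which lead their stretches by that mean. PABPC1, which coats the poly(A) tail of messenger RNA, was at 541, 589 and 545 CPM in knockout and 1491, 1587 and 1296 CPM in wild type (-1.38 ± 0.06). It alone made up 12.3% of the drop in the members' summed level, from 15899 to 8557 CPM. PLEC, the cytolinker plectin, had the widest spread in wild type, with 763, 894 and 1141 CPM there against 244, 223 and 269 CPM in knockout (-1.93 ± 0.19), and the genotypes did not overlap. EIF3E, another eIF3 subunit, fell from 332 ± 22.2 to 109 ± 3.36 CPM, TRAM1, a helper of protein entry into the endoplasmic reticulum, from 177 ± 6.67 to 93.0 ± 4.51 CPM, and the calcium-binding copine gene CPNE3 from 84.5 ± 1.46 to 38.0 ± 1.54 CPM. Smaller falls were seen for EXT1, a heparan sulfate polymerase (-0.52 ± 0.05), and TAF2, a subunit of the transcription factor TFIID (-0.65 ± 0.05).

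MCM4 and IMPAD1 did not pass the threshold. MCM4, a subunit of the replicative helicase, was at 149, 144 and 145 CPM in knockout and 142, 141 and 136 CPM in wild type (0.07 ± 0.05, edgeR adjusted p = 0.192), with each knockout library slightly above each wild-type library. Its next neighbour, PRKDC, the catalytic subunit of DNA-dependent protein kinase, was at 18.1, 17.2 and 19.4 CPM against 42.3, 41.8 and 56.7 CPM (-1.36 ± 0.11). These models lie head to head on opposite strands, with PRKDC reaching 19551028 on the minus strand and MCM4 starting at 19551601 on the plus strand. IMPAD1, a Golgi phosphatase of nucleotide by-products of sulfation, was at 116, 110 and 106 CPM in knockout and 104, 106 and 123 CPM in wild type (0.00 ± 0.06, edgeR adjusted p = 0.964), and the genotypes overlapped.

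The members farthest above the median were mostly genes with few reads in wild type. They were picked as the highest values of this same comparison. RGS20, KHDRBS3, CA13 and ZBTB10 reached the read threshold through their knockout reads, so nothing is read from their low wild-type level. RGS20, a regulator that speeds G protein shut-off, was at 4.94, 4.30 and 4.35 CPM in knockout and 0.113, 0.107 and 0 CPM in wild type (5.82 ± 0.39). KHDRBS3, an RNA-binding splicing regulator, was at 9.76, 10.6 and 9.48 CPM against 0.677, 0.322 and 0.382 CPM (4.42 ± 0.22). The neighbouring carbonic anhydrase genes rose together, CA2 from 3.98 ± 0.463 to 24.1 ± 0.919 CPM and CA13 from 0.219 ± 0.144 to 2.01 ± 0.501 CPM. ZBTB10, a zinc-finger repressor, rose from 0.276 ± 0.0997 to 1.93 ± 0.445 CPM, and PI15, a secreted peptidase inhibitor, from 1.10 ± 0.390 to 3.43 ± 0.405 CPM. The SE was 0.11 for CA2, the best read of these, and 0.22 to 0.41 for the others.

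CEBPD, a C/EBP transcription factor of epithelial and immune stress responses, was at 45.1, 36.9 and 39.5 CPM in knockout and 20.7, 17.7 and 15.2 CPM in wild type (1.18 ± 0.10). Its model (19128179 to 19129773) overlaps only the edge of that of SPIDR (from 19129765), a repair scaffold that was itself lower (-0.36 ± 0.10). Without a stated strand setting, reads in that short overlap may be mixed. ADHFE1, a mitochondrial dehydrogenase, rose from 3.98 ± 0.568 to 10.4 ± 0.448 CPM, and TRPS1, a GATA-type repressor, was at 9.87, 11.3 and 10.8 CPM against 4.80, 5.25 and 5.19 CPM (1.06 ± 0.12). ZHX2, a zinc-finger and homeobox repressor, had a smaller rise (0.52 ± 0.10), as did PAG1, an adaptor that anchors a Src-inhibiting kinase (0.26 ± 0.08). MRPL33 on chromosome 14 rose from 4.69 ± 0.352 to 9.38 ± 0.647 CPM, but 3 rows of the table carry that symbol and this model is 198 bases long, so its reads may be shared with the copies on chromosomes 11 and 13.

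The members farthest below the median ranged from genes with a single knockout read to genes still well read in knockout. LY6D, a membrane-anchored antigen of squamous epithelium, had 78 reads in wild type and 1 in knockout, a ratio of 79.4 (95% exact counting interval 13.8 to 3174). KCNB2, a potassium channel gene, had 76 against 1 (ratio 77.3, interval 13.5 to 3094). These genes were picked as the lowest values of this same comparison, and they reached the read threshold through their wild-type reads. The intervals treat reads summed over a genotype's libraries as independent counts and leave out the spread between libraries. They describe counting noise only, and nothing is read from them about a difference between genotypes. SBSPON, a secreted protein with a thrombospondin repeat, was at 1.21, 1.58 and 1.39 CPM in knockout and 25.9, 25.9 and 28.8 CPM in wild type (-4.26 ± 0.13). NOV, the matricellular protein CCN3, was at 9.18, 12.2 and 11.0 CPM against 143, 146 and 136 CPM (-3.71 ± 0.08), and the next member along the chromosome, MAL2, an apical trafficking protein of epithelia, was at 68.5, 73.2 and 66.6 against 360, 375 and 368 CPM (-2.40 ± 0.05). Both fell much further than the typical member.

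EYA1, a transcriptional coactivator with phosphatase activity, fell by 3.47 ± 0.19 (log2), and FER1L6 of the ferlin family fell by 2.81 ± 0.09. SYBU, which links vesicles to kinesin, fell by 2.55 ± 0.18 and ASAP1, an activator of Arf GTPase turnover, by 2.50 ± 0.08. IQANK1 fell by 2.50 ± 0.11, and its model overlaps FAM83H, an organiser of keratin filaments that fell by 1.62 ± 0.05.

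**Figure D4:**
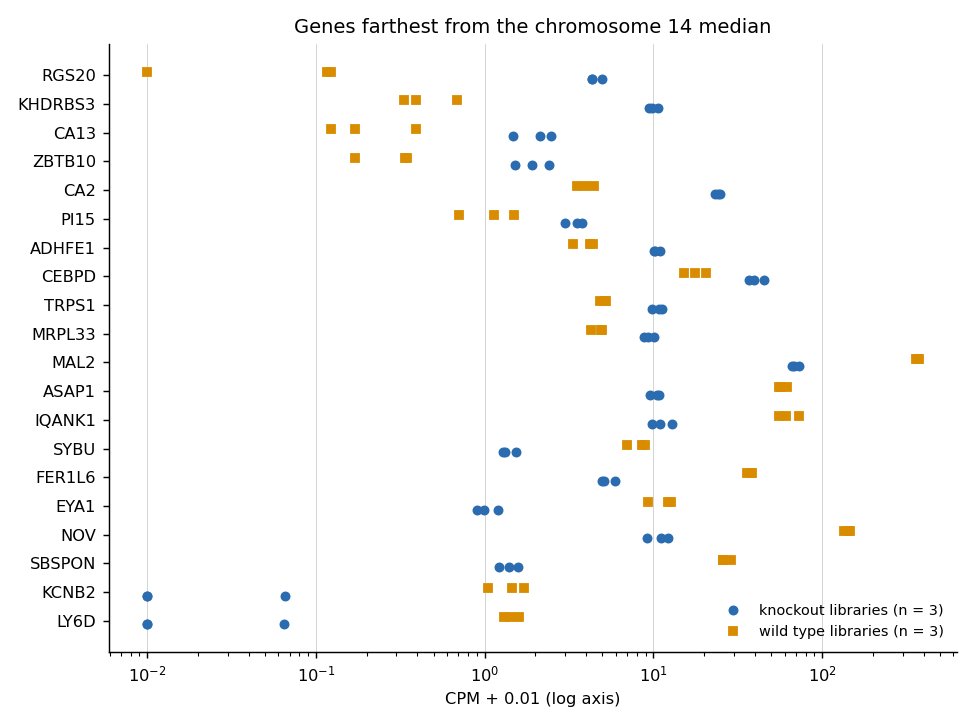
Level of the 10 highest and 10 lowest members by log2 fold change (rows) in each library, as CPM + 0.01 on a log axis, with blue circles for the 3 knockout and orange squares for the 3 wild-type libraries. The 20 genes were picked by this same comparison, and the genotypes do not overlap in any of them. Over all genes tested, all knockout libraries lay below all wild-type libraries for 38.3% and above them for 37.9%. Points at the left edge are libraries with 0 reads.

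By role, every list had a median below 0. The lists share some genes, and 82 members are on none of them. Of all 252 members 81.7% were lower and 7.54% higher, beside 37.6% and 37.1% of all genes tested. The counts per list are set beside these shares as a description, and nothing is read from them about a role. Vesicle, lysosome, proteasome and ubiquitin genes had 34 of 35 members lower and 0 higher (median -0.95). VPS13B, a Golgi lipid transfer protein, fell from 78.0 ± 4.89 to 24.7 ± 2.35 CPM. UBE2V2, a ubiquitin-conjugation cofactor, was at 95.3 ± 4.76 against 102 ± 10.6 CPM and did not pass, except without wild-type replicate 3 (-0.18, edgeR adjusted p = 0.0014). CHMP4C, part of the membrane-scission machinery, fell by only 0.26 ± 0.06, and TMEM67, a ciliary membrane protein, had a value of -0.29 ± 0.12.

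Surface and epithelial genes had 11 of 11 lower, with a median of -1.62, and besides LY6D, KCNB2 and MAL2 they included ST3GAL1, a sialyltransferase (-0.30 ± 0.09), TMEM65 (-0.60 ± 0.07) and the cadherin gene CDH17 (-0.75 ± 0.13). Of the 11, MAL2, TMEM65, FAM83H, PLEC, EPPK1 and CDH17 are also on other role lists. All role lists were put together with earlier results of the same data known. The luminal and basal markers given above, none of them on this chromosome, were also lower in sum, mostly through KRT8, KRT18, KRT5 and ITGA6. Whether that bears on this list was not tested.

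Of 38 rows on the transcription and chromatin list, 30 were lower and 5 higher (median -0.85). OSR2, a zinc-finger factor of mesenchyme, fell from 106 ± 5.03 to 21.4 ± 1.64 CPM, while CEBPD, TRPS1 and ZBTB10 rose as given above. The translation and RNA processing list had 23 lower and 3 higher of 30 (median -0.71). It is mixed, since it holds the Golgi phosphatase gene IMPAD1 and shares ZNF706, which was higher, with the transcription list. YTHDF3, a reader of methylated RNA, fell from 113 ± 5.16 to 41.6 ± 1.76 CPM, while ZNF706, a small zinc-finger protein, rose from 55.3 ± 6.57 to 90.5 ± 0.936 CPM and MRPL15 of the mitochondrial ribosome from 33.8 ± 1.51 to 47.0 ± 0.824 CPM.

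Replication, repair, cohesin and cell cycle genes had 13 lower and 0 higher of 16, with a median of -0.54. Besides PRKDC, the break-repair gene NBN fell from 28.3 ± 1.73 to 14.6 ± 0.837 CPM and the telomere-binding gene TERF1 from 43.7 ± 3.58 to 22.7 ± 0.636 CPM. DSCC1, which loads the sliding clamp, stood at 13.1 ± 1.09 against 14.2 ± 1.77 CPM with overlapping genotypes. NSMCE2, a SUMO ligase, had -0.24 ± 0.10 and lost its call without knockout replicate 1 (-0.15, edgeR adjusted p = 0.201), as did TMEM67 (-0.19, adjusted p = 0.20).

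Mitochondrial and metabolic genes had 21 lower and 4 higher of 28 (median -0.65). OPLAH, of glutathione turnover, fell from 44.1 ± 5.78 to 8.98 ± 0.957 CPM, RDH10, which oxidises retinol, from 23.0 ± 0.104 to 5.50 ± 0.654 CPM, and the mitochondrial nuclease gene LACTB2 from 15.4 ± 1.87 to 4.35 ± 0.799 CPM. Kinases, GTPase regulators and scaffolds had 27 lower and 4 higher of 31 (median -0.85). The list is mixed, since PI15, one of the 4, is a secreted peptidase inhibitor. MAPK15, an atypical MAP kinase, fell by 1.96 ± 0.20 and ARFGEF1, an activator of Arf GTPases whose model overlaps CSPP1, by 1.65 ± 0.06.

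Matrix, adhesion and secreted genes had 9 lower and 2 higher of 13 (median -0.75). The 13 include genes of the cell's interior, among them the cytolinker genes PLEC and EPPK1 (-1.72 ± 0.23), which were lower, and the syntrophin gene SNTG1. SULF1, which trims sulfate from heparan sulfate, fell from 15.4 ± 1.40 to 3.52 ± 0.155 CPM. CTHRC1, a secreted collagen-triple-helix protein, was at 450, 448 and 443 CPM in knockout and 340, 317 and 344 CPM in wild type (0.42 ± 0.04). LRP12, a receptor of the LDL receptor family, was at 122, 128 and 127 CPM against 94.3, 89.0 and 97.3 CPM (0.43 ± 0.05). Both stood above all wild-type libraries, and the members next to each on either side were lower. SNTG1, at 0.797 ± 0.205 against 0.546 ± 0.226 CPM, did not pass (0.54 ± 0.40).

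**Figure D5:**
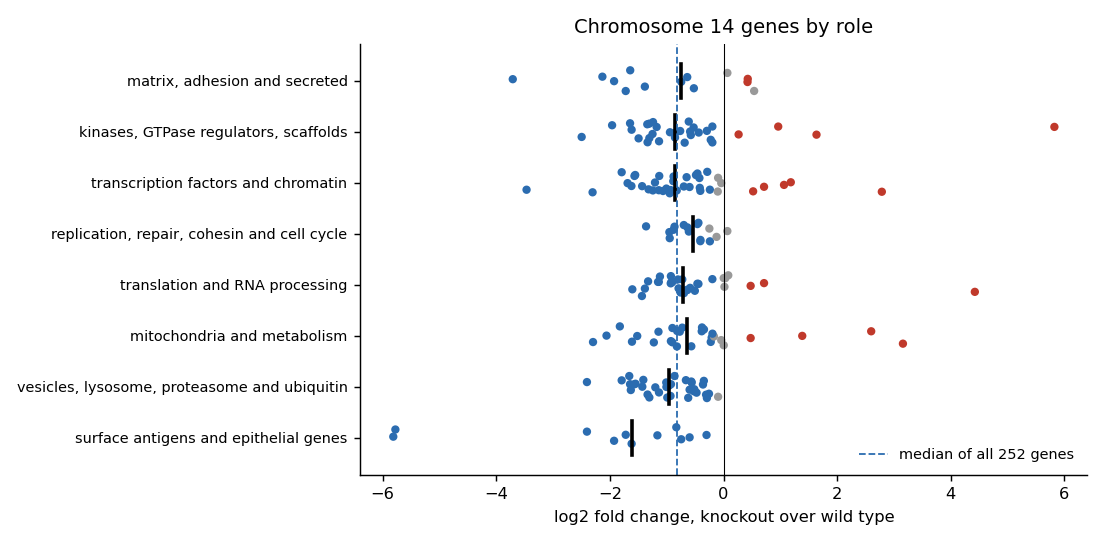
Fitted log2 fold change (horizontal axis, knockout over wild type) of the members on each role list (rows), with blue points lower, grey not past the threshold and red higher by the edgeR call, a black bar at each list's median and a dashed line at the median of all 252 genes (-0.82). Each black bar lies below 0, from -1.62 for surface and epithelial genes to -0.54 for replication and repair genes.

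The median was below 0 across expression levels, model lengths and strands. With the members split by mean CPM over all libraries into 3 sets of 84, the medians were -0.72 in the lowest (up to 12.4 CPM), -0.83 in the middle and -0.86 in the highest set. The calls were less uniform among poorly read genes: 55 lower and 11 higher in the lowest set, 73 and 5 in the middle, 78 and 3 in the highest. Over all genes tested 37.6% were lower and 37.1% higher. By length of the gene model, the medians were -0.74, -0.66 and -1.08 from the shortest to the longest set, where genes elsewhere of the same lengths had 0.11, 0.01 and -0.12. The longest members thus had the lowest median, as did the longest genes elsewhere. The 126 members on the plus strand had a median of -0.79 and the 126 on the minus strand -0.83.

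Rows of chromosome 14 outside the member rule also had medians below 0. They share the chosen chromosome and comparison, so this is a description as well. The 18 left-out named symbols had a median knockout level of 0.499 of wild type with 17 lower and 1 higher, and the 5 ribosomal protein rows a median log2 fold change of -0.89 with 4 lower and 0 higher. Tested rows of other biotypes, mostly noncoding RNA, had a median of -0.65 with 14 of 26 lower (53.8%), 3 higher and 9 not past the threshold. Over all genes tested, 37.6% were lower. At the read threshold, WISP1 (69 reads) and an unnamed gene with 63 reads were just inside, at 0.07 and 0.34 with overlapping genotypes, while H3F3C (49 reads) and NAPRT (44 reads) were just outside and untested.

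Other chromosomes were shifted as well, by less. Under the same rule apart from the named symbols, the medians of the other 28 autosomes and the X chromosome ran from -0.58 to 0.48, against -0.84 for chromosome 14. Chromosomes 12 and 28 together had a median of -0.47 with 238 of 374 tested genes lower, and chromosomes 20 and 26 together had 0.45 with 286 of 440 higher. These medians are set side by side as a description, since chromosome 14 was chosen for its place among them. In the authors' deposited table, which lists 9532 genes at an adjusted p-value up to 0.0499, 216 of the members appear, 197 with a negative and 19 with a positive log2 fold change. Negative values thus make up 91.2% of the listed members, beside 48.2% of all listed genes in the authors' deposited table.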

How the data were processed

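RNA of 3 KLF6 knockout and 3 wild-type libraries was counted per gene by the authors, with the tools HISAT2 2.0.5 and featureCounts 1.5.0-p3 named in the submitters' processing notes. No source used here gives the genome build, annotation version or strand setting. The deposited values are raw counts, 17512892 to 18724879 per library. Positions, symbols and biotypes are those of the count table. The authors' deposited comparison holds a log2 fold change and an adjusted p-value per listed gene, and no source used here names its test.

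The whole table was fitted with edgeR 4.0.16 (R 4.3.3): TMM scaling, filterByExpr (minimum count 10, minimum total 15), robust quasi-likelihood test, Benjamini-Hochberg adjustment over 13390 genes. All 252 members passed the filter. Each SE is the absolute log2 fold change divided by the root of its F statistic. The fit was also run on simulated counts, with known changes in equal numbers up and down and a common dispersion. That setting holds no chromosome-wide shift, so it says nothing about such a shift.

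Members, role lists and marker lists were chosen with earlier results of these data known. Named were the 10 highest and 10 lowest members, the most abundant per 10 Mb, up to 3 per direction of each role list, 5 abundant members within 0.1 of the median, and the genes beside the read threshold. SPIDR, FAM83H and CSPP1, which overlap one of these, neighbours of the highest members, ZHX2, PAG1 and the ends of windows and runs were added after their values were seen. Alternatives were other scalings, filters and tools (DESeq2 1.42.0, limma-voom 3.58.1), a replicate block, left-out libraries and other member rules. Some members that this rule names are not reported here.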

Additional observations from a re-analysis of the deposited data

How the results depend on the processing

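The members stayed lower under each alternative run. Their median log2 fold change, -0.82, was -0.87 with scaling by library size only, -0.81 with DESeq2 size factors and by DESeq2, -0.84 with TMM factors from genes off chromosome 14 and with genes of at least 1 CPM in 3 libraries, and -0.85 with the left-out symbols put back in and with at least 600 counts. Members that overlap no other gene, chosen after seeing the data, gave -0.81. Leaving out a library in turn gave -0.845 to -0.813, with 199 to 204 members lower and 19 to 21 higher. With at least 600 counts 12 members were higher in place of 19. The least lowered 10 Mb stretch had a median of -0.46, and -0.48 to -0.39 with a library left out. With 5 Mb bins the least lowered of 17 was at -0.29. With the replicate block the median was -0.83, with 206 members lower and 19 higher, and the block changed no call of a named member. Same-numbered libraries did not deviate together (correlations of their deviations from the group means -0.04, 0.07 and -0.02), so they share a number only. Of the 61 members that the naming rule picks, IMPAD1, at 0.00, was -0.047 with library size only, -0.013 with TMM from genes off chromosome 14, and -0.038 to 0.085 with a library left out, never past the threshold. NSMCE2 and TMEM67 lost their calls by DESeq2 (adjusted p = 0.0889 and 0.0964) and without knockout replicate 1, and NSMCE2 without wild-type replicate 1 or 3 and TMEM67 without knockout replicate 2 or wild-type replicate 2. For WISP1, with 69 reads in all, the SE of 0.41 is too wide to show a change of moderate size.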
